A study of Homo sapiens with 9 samples.

Results

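Lysyl oxidases and the proteinases that mature procollagen were followed in xenografts of the breast cancer line MDA-MB-231, implanted with human mesenchymal stem cells (MSC) or alone. The 8 genes were chosen by symbol, as the lysyl oxidases LOX, LOXL1, LOXL2, LOXL3 and LOXL4, the procollagen C-proteinase BMP1 and its enhancers PCOLCE and PCOLCE2, out of 21619 genes in the count tables. They were chosen with earlier results of the comparison with and without MSC known, so their values in that comparison are given as a description and their p-values are no independent support. The tumours with MSC came from MDA-MB-231 cells that carry the ribosomal protein L10a fused to EGFP, put into the mammary fat pad together with bone marrow MSC in equal number (5 tumours, numbered 1, 6, 7, 10 and 15). The tumours without MSC came from the same tagged cells alone (4 tumours, numbered 9, 11, 12 and 13). Each tumour was from its own mouse and was taken after 3 weeks, and the strain and age of the mice are not stated in the labels. Ribosomes with the tag were pulled down from whole tumours and their RNA was sequenced, so the values describe ribosome-bound RNA of the tagged line plus any carry-over from mouse cells or from the MSC, which the labels do not describe as tagged. In such bulk samples, fewer cells of a type and less RNA per cell cannot be told apart.

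Collagen is secreted as a procollagen whose ends are cut off outside the cell, and BMP1, a metalloproteinase of the tolloid group, removes the C-terminal end. PCOLCE and PCOLCE2 are secreted glycoproteins that bind the C-propeptide and speed this cut. Lysyl oxidases are copper-dependent amine oxidases that oxidise lysines of collagen and elastin, the first step of covalent crosslinking; the founding member, LOX, is itself made as a proenzyme that BMP1 activates. In breast cancer LOX is known as a gene that hypoxia induces and that takes part in stiffening of the matrix, and LOXL2 is known for crosslinking of basement membrane collagen.

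Gene totals per library were 29749909 to 50639082 counts with MSC and 24616792 to 65275226 counts without MSC. All 8 genes passed the filter on low counts and were among the 13458 genes tested. The line's own markers were abundant, with 8607 to 14350 summed CPM (counts scaled to the library total) with MSC and 8025 to 9371 without MSC over VIM, CD44, CAV1, EGFR and AXL. These markers were themselves higher with MSC in part: CD44, EGFR and AXL were called (log2 changes 0.61, 0.90 and 0.53, edgeR adjusted p at most 0.0137) and the median of the 5 was 0.53, beside 0.40 for the 8 genes described here. Tumour 15, grown with MSC, stood apart for fibroblast and MSC markers: the 12 genes of that list summed to 130.7 CPM in it, against 24.1 to 43.1 CPM in the other tumours with MSC and 19.5 to 32.3 CPM without MSC. Decorin (DCN), a defining fibroblast marker, was 18.9 CPM in tumour 15 and at most 0.207 CPM in the other 8, and PDGFRA was at 0 in 4 libraries. Where leaving out tumour 15 moved the log2 change of one of the 8 genes by over 1.5 times or ended its call, both values are given.

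The windows around the transcription starts of 3 of the genes are shown because LOX had the largest change of the 8 genes, its paralog LOXL1 a smaller one, and PCOLCE a change of the opposite sign. Each runs from 250 bases before to 50 bases after a RefSeq start on GRCh38.p14, read 5′ to 3′ on the gene's strand, and capitals mark the core letters of the hypoxia response element, ACGTG or GCGTG, on either strand. The LOX window is chr5:122078210-122078509 on the minus strand, the most upstream of 3 LOX windows in the RefSeq table, that of LOXL1 is chr15:73926212-73926511 on the plus strand, and that of PCOLCE is chr7:100602113-100602412 on the plus strand.
LOX: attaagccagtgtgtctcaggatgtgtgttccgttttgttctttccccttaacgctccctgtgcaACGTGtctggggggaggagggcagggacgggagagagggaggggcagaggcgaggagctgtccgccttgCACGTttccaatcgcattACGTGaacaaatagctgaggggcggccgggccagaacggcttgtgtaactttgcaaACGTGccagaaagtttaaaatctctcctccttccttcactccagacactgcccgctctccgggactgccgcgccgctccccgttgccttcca
LOXL1: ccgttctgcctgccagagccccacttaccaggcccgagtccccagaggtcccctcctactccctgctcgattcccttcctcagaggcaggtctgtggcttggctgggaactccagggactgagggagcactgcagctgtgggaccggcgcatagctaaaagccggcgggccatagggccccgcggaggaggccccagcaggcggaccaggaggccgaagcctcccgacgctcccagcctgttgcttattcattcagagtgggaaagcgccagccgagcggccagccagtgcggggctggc
PCOLCE: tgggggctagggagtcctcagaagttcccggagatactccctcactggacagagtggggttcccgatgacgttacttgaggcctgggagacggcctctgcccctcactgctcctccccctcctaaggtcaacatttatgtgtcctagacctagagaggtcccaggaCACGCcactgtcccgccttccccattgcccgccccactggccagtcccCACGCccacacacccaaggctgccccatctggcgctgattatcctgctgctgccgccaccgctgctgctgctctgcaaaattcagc
The LOX window held ACGTG at 4 places, whose first bases lie at -185, -116, -98 and -42 from the start, the one at -116 on the opposite strand and none overlapping another. Of 35116 RefSeq windows of the same length, 21.4% held ACGTG at least once and 0.843% held it 4 times or more. The cut of 4 was the number seen in this window, the richest of the 3 LOX windows, so the share is no test. The other 2 LOX windows overlap each other and held the same ACGTG and the same GCGTG, 1 of each. The LOXL1 window held neither form, and the PCOLCE window held GCGTG at -84 and -36, both on the opposite strand. Either form was found in 48.4% of all windows. Of the windows not printed, that of LOXL4 held neither form and that of PCOLCE2 held GCGTG at 40. For LOXL3, the window at chr2:74549477-74549776 held GCGTG at -246 and the other held neither form. The printed windows were picked by the changes of their genes, and a link between these letters and the changes was not tested. The windows of LOXL2 and BMP1 were not used here, and a match is a string of letters, not a binding site.

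Of the 8 genes, 3 were called higher with MSC and none lower, and 5 did not pass (quasi-likelihood test of edgeR, p adjusted over all tested genes by Benjamini-Hochberg, threshold 0.05). The background was 4.18% of tested genes called higher, 3.60% called lower and 7.78% called in either direction, and since the genes were proposed from this comparison nothing is read from their count. The log2 change, with MSC minus without, was positive for 7 of the 8, with a median of 0.40 against 0.01 over all tested genes. The CPM of the groups did not overlap for LOX, LOXL2 and BMP1, higher with MSC, nor for PCOLCE, lower with MSC; over all tested genes, 5.13% were apart in the first direction and 4.87% in the second.

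**Figure D1:**
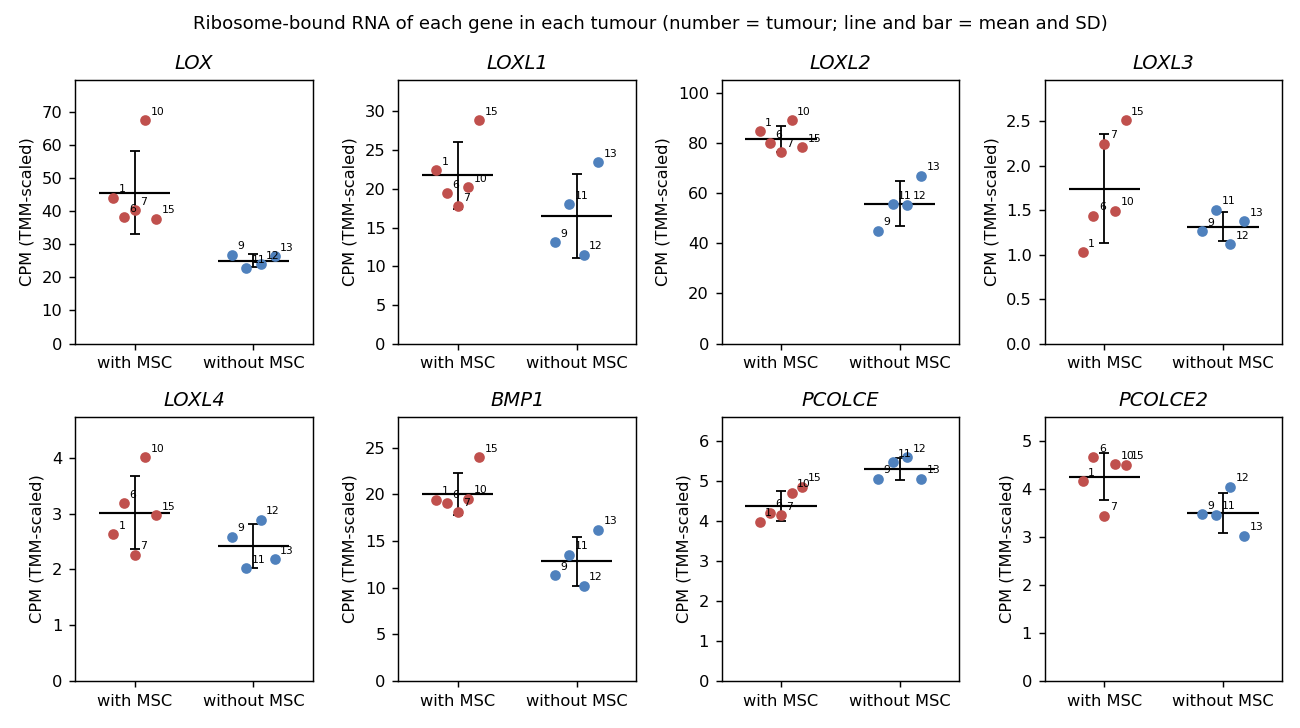
CPM of each of the 8 genes in each tumour, the 5 tumours with MSC on the left and the 4 without MSC on the right, with the tumour number beside each point, a line at the group mean and a bar of 1 SD. The groups are apart for LOX, LOXL2, BMP1 and PCOLCE, with PCOLCE the lower one with MSC, and overlap for the other 4 genes.

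LOX (chromosome 5, 122063195 to 122078360 on GRCh38, minus strand) showed the largest change. It was 44.0, 38.2, 40.3, 67.5 and 37.7 CPM in tumours 1, 6, 7, 10 and 15 with MSC, against 26.8, 22.7, 23.9 and 26.3 CPM in tumours 9, 11, 12 and 13 without. All 5 tumours with MSC were above the highest without, and tumour 10 was well above the other 4. The means were 45.5 ± 12.5 CPM with MSC and 24.9 ± 1.97 CPM without (SD, n = 5 and n = 4), a log2 change of 0.87 ± 0.15 (SE, edgeR adjusted p = 0.00403). By p-value LOX stood at rank 42 of the 13458 tested genes. Without tumour 10 the change was 0.68 (edgeR adjusted p = 0.00595), and without tumour 15 it was 0.93 (edgeR adjusted p = 0.00351). The call held in each of the 9 fits that left out 1 library and in all 10 other fits, with log2 changes of 0.68 to 0.96.

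LOXL2 (chromosome 8, 23297189 to 23425328, minus strand), a lysyl oxidase with scavenger receptor domains, had the highest CPM of the 8 genes in each group. It was 84.7, 79.8, 76.4, 89.2 and 78.2 CPM in tumours 1, 6, 7, 10 and 15 with MSC and 45.0, 55.6, 55.4 and 66.9 CPM in tumours 9, 11, 12 and 13 without. The tumours with MSC lay close together and all above tumour 13, the highest without. The means were 81.7 ± 5.20 and 55.7 ± 8.96 CPM, a log2 change of 0.55 ± 0.11 (SE, n = 5 and n = 4, edgeR adjusted p = 0.00773). The call held in each of the 9 fits without 1 library, where the change was 0.46 to 0.65 and the adjusted p at most 0.0364.

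LOXL1 (chromosome 15, 73925989 to 73952137, plus strand), the family member known for crosslinking of elastin, did not pass. It was 22.4, 19.4, 17.8, 20.2 and 28.9 CPM in tumours 1, 6, 7, 10 and 15 with MSC, against 13.1, 17.98, 11.5 and 23.5 CPM in tumours 9, 11, 12 and 13 without. Only tumour 15 was above the highest tumour without MSC, tumour 13. The means were 21.7 ± 4.33 and 16.5 ± 5.40 CPM, with a log2 change of 0.40 ± 0.19 (SE, n = 5 and n = 4, edgeR adjusted p = 0.197). The change was 0.27 without tumour 15 (edgeR adjusted p = 0.417) and 0.62 without tumour 13, the 1 fit in which it passed (edgeR adjusted p = 0.0266).

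LOXL3 and LOXL4, both of the scavenger receptor group with LOXL2, were scarce. LOXL4 (chromosome 10, 98247690 to 98268250, minus strand) was 2.64, 3.19, 2.27, 4.01 and 2.97 CPM in tumours 1, 6, 7, 10 and 15 with MSC and 2.58, 2.03, 2.90 and 2.18 CPM in tumours 9, 11, 12 and 13 without. Its groups overlapped, although tumour 10 was the highest of the 9, as it was for LOX and LOXL2 (log2 change 0.32 ± 0.26, edgeR adjusted p = 0.471; 0.19 without tumour 10). LOXL3 (chromosome 2, 74532414 to 74555690, minus strand) was 1.03, 1.43, 2.24, 1.49 and 2.51 CPM in tumours 1, 6, 7, 10 and 15 with MSC, against 1.26, 1.504, 1.117 and 1.38 CPM in tumours 9, 11, 12 and 13 without. The tumours with MSC held both the lowest value, in tumour 1, and the highest, in tumour 15 (log2 change 0.40 ± 0.35, edgeR adjusted p = 0.510; 0.23 without tumour 15, edgeR adjusted p = 0.770). LOXL3 had 27 to 97 counts per library, so that counting alone gave an error of 19.2% at the lowest, and its SE was the widest of the 8 genes. In the GENCODE annotation 14.3% of the exon bases of LOXL3 overlap HTRA2 and 4.95% overlap DOK1, both on the other strand and both with more counts (64.6 and 34.2 CPM with MSC, 63.0 and 34.5 CPM without). The library kit does not mark strand, and the use of strand in counting is not stated. Reads from the shared bases may have been counted for either gene or left out as ambiguous (2.38 to 2.75% of a library). The values of LOXL3 are therefore uncertain.

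BMP1 (chromosome 8, 22164736 to 22212326, plus strand) was also higher with MSC. It was 19.4, 19.0, 18.1, 19.5 and 23.96 CPM in tumours 1, 6, 7, 10 and 15 with MSC, against 11.4, 13.5, 10.2 and 16.2 CPM in tumours 9, 11, 12 and 13 without. Of the tumours with MSC, 4 lay within a narrow range just above tumour 13, and tumour 15 lay apart above them. The means were 20.004 ± 2.28 CPM with MSC and 12.8 ± 2.63 CPM without, a log2 change of 0.64 ± 0.15 (SE, n = 5 and n = 4, edgeR adjusted p = 0.0151). The change was 0.56 without tumour 15 (edgeR adjusted p = 0.0385). The call was lost without tumour 9 (log2 change 0.58, edgeR adjusted p = 0.0581), without tumour 12 (0.54, edgeR adjusted p = 0.0586) and without tumours 15 and 12 together (0.47, edgeR adjusted p = 0.101).

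PCOLCE (chromosome 7, 100602177 to 100608175, plus strand) went the other way by its values, without passing the test. It was 3.98, 4.20, 4.14, 4.70 and 4.85 CPM in tumours 1, 6, 7, 10 and 15 with MSC and 5.05, 5.46, 5.58 and 5.05 CPM in tumours 9, 11, 12 and 13 without. All 5 tumours with MSC were below the lowest without, tumour 15 included. The means were 4.37 ± 0.379 and 5.28 ± 0.278 CPM, a log2 change of -0.27 ± 0.18 (SE, n = 5 and n = 4, edgeR adjusted p = 0.380). Its counts were 117 to 332 per library, and the change was -0.40 to -0.24 in every alternative fit. In GENCODE 16.6% of its exon bases overlap the antisense gene PCOLCE-AS1, which was not analysed here and whose reads cannot be told apart from those of PCOLCE. PCOLCE2 (chromosome 3, 142815922 to 142889206, minus strand) was 4.16, 4.66, 3.45, 4.51 and 4.51 CPM in tumours 1, 6, 7, 10 and 15 with MSC, against 3.48, 3.47, 4.05 and 3.03 CPM in tumours 9, 11, 12 and 13 without. Here 4 of the 5 tumours with MSC were above the highest without, tumour 7 being the exception (log2 change 0.28 ± 0.21, edgeR adjusted p = 0.423). Other members also share exon bases with another gene. The shares were 6.17% for BMP1 (AC105206.1, same strand), 9.21% for LOXL1 (LOXL1-AS1) and 4.16% for LOXL4 (AL139241.1). For LOX it was 2.49% (SRFBP1), and for LOXL2 3.12% (AC090197.1) and 2.10% (ENTPD4, same strand). How reads from these bases were counted is not stated.

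**Figure D2:**
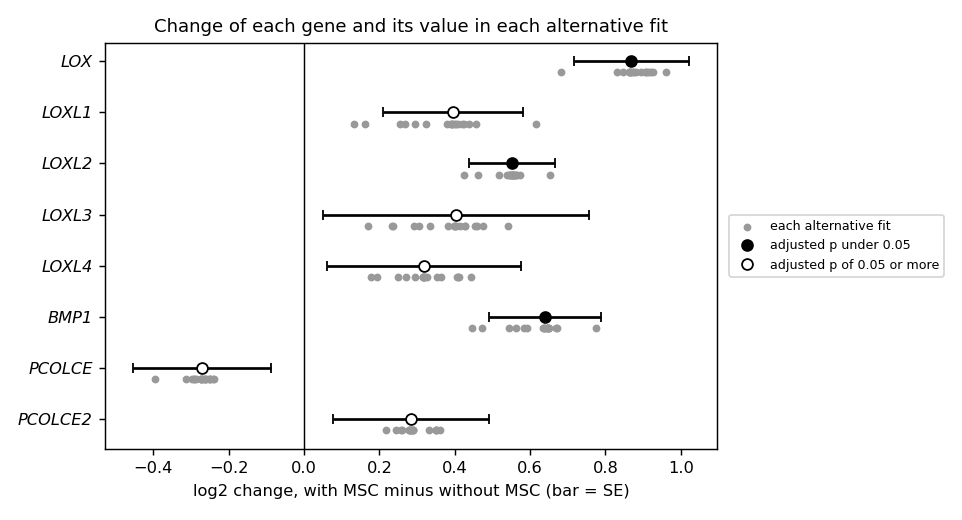
Log2 change of each gene, with MSC minus without MSC, with a bar of 1 SE; filled circles passed the adjusted p threshold of 0.05, open ones did not, and grey points below are the values in each alternative fit. LOX, LOXL2 and BMP1 are filled, PCOLCE is the one gene left of 0, and no grey point lies on the other side of 0 from its gene.

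BMP1 and the enhancer PCOLCE were set against each other within each tumour, on the scale of CPM per kilobase of transcript, which allows levels of different genes to be compared. The ratio of BMP1 to PCOLCE was 1.96, 1.83, 1.76, 1.67 and 1.99 in tumours 1, 6, 7, 10 and 15 with MSC. Without MSC it was 0.906, 0.995, 0.736 and 1.29 in tumours 9, 11, 12 and 13. The groups did not overlap, with a mean ratio of 1.84 ± 0.133 with MSC and 0.982 ± 0.232 without (SD, n = 5 and n = 4). This followed from the values above, since BMP1 alone was apart upward and PCOLCE alone downward. BMP1 exceeded PCOLCE in all 5 tumours with MSC by each of 3 measures of length; without MSC it did so in 1 of 4 tumours by transcript length and in 3 of 4 by coding length or by all exons. Another length scales the ratio of every tumour by the same factor, so whether the groups overlap cannot depend on it. The mean ratios were 2.08 with MSC and 1.11 without by coding length, and 2.16 with MSC and 1.15 without by all exons. Set against PCOLCE and PCOLCE2 summed, by transcript length, BMP1 was at 0.924 to 1.11 with MSC and 0.457 to 0.857 without.

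The summed level of the 5 lysyl oxidases was 42.5 ± 3.98 CPM per kb with MSC (lowest 38.2, highest 48.5) and 28.6 ± 4.56 CPM per kb without (lowest 24.6, highest 34.98). The mix of the family overlapped between the groups for each of its 5 members. LOXL2 made up 54.3 ± 2.70% of the sum with MSC and 54.8 ± 3.28% without, LOXL1 21.8 ± 4.04% and 24.1 ± 4.43%, and LOX 20.8 ± 3.87% and 17.4 ± 3.00%. LOXL4 and LOXL3 were minor members, at 1.93 ± 0.297% and 1.19 ± 0.456% with MSC and 2.38 ± 0.660% and 1.32 ± 0.184% without. LOX reached 27.3% in tumour 10, its highest share, while LOXL1 was at its lowest there, at 17.7%. These shares depend on the length used for each gene: by coding length LOX made up 41.7% with MSC and 36.5% without.

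**Figure D3:**
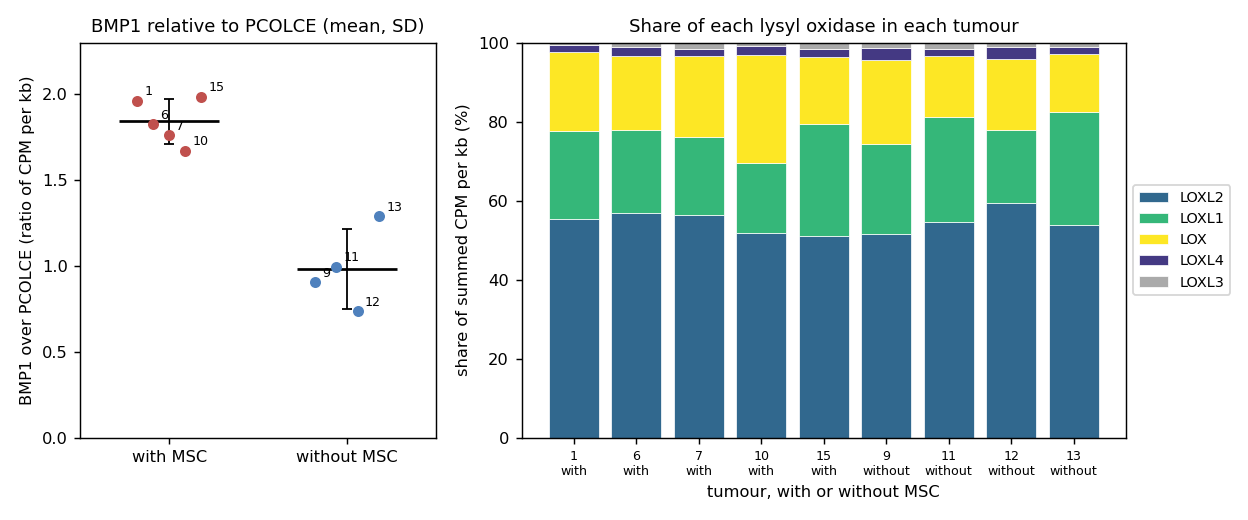
Left, the ratio of BMP1 to PCOLCE in CPM per kilobase in each tumour, with MSC left of without MSC, with group mean and SD; right, the share of each lysyl oxidase in the summed CPM per kilobase, in percent, by tumour. The ratios with MSC are 1.67 to 1.99 and those without 0.736 to 1.29, while LOXL2 takes 51.0 to 59.4% of the sum in every tumour.

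The order of the genes by level per kilobase was not used to choose them. It was taken from the mean log2 level over the 9 tumours, and its neighbours were then compared over the same tumours. The pairs and their direction thus come from the values tested, and the p-values only describe the order. Both groups were pooled, so the pair of BMP1 and PCOLCE also carries the comparison with and without MSC. LOXL2 came first, at 23.0 ± 1.47 CPM per kb with MSC and 15.7 ± 2.53 without, followed by LOXL1 (9.25 ± 1.84 and 7.02 ± 2.298), LOX (8.92 ± 2.45 and 4.89 ± 0.386), BMP1 (4.73 ± 0.538 and 3.03 ± 0.621), PCOLCE (2.57 ± 0.223 and 3.11 ± 0.163), PCOLCE2 (2.11 ± 0.242 and 1.74 ± 0.208), LOXL4 (0.825 ± 0.180 and 0.663 ± 0.108) and LOXL3 (0.498 ± 0.176 and 0.375 ± 0.0471). Of the 7 pairs of neighbours, 5 had an adjusted p under 0.05 by transcript length. The spread over tumours does not hold the uncertainty of the lengths, so these p-values do not settle the order. LOXL2 over LOXL1, LOX over BMP1, PCOLCE over PCOLCE2 and PCOLCE2 over LOXL4 held in 9 of 9 tumours each (exact two-sided sign-flip permutation, adjusted p = 0.00684 over 7 pairs, unadjusted p = 0.00391, the smallest that 9 tumours allow), with mean log2 differences of 1.28, 0.81, 0.54 and 1.38. PCOLCE over PCOLCE2 depended on the length: by coding length the mean log2 difference was 0.18 (exact permutation, adjusted p = 0.148), and with MSC PCOLCE was the lower, at 3.25 against 3.42 CPM per kb of coding sequence. LOXL4 exceeded LOXL3 in 8 of 9 tumours, by 0.79 ± 0.53 (SD; exact permutation, adjusted p = 0.0109).
LOXL1 over LOX had a log2 difference of 0.25 ± 0.49, with LOXL1 higher in 7 of 9 tumours (exact permutation, adjusted p = 0.137). With coding length LOX was above LOXL1 by a mean log2 difference of 1.33. By that length it also ranked above LOXL2 with MSC (36.4 against 35.2 CPM per kb of coding sequence). For BMP1 over PCOLCE the log2 difference was 0.46 ± 0.54 over all 9 tumours (exact permutation, adjusted p = 0.0547). BMP1 was the higher in 5 of 5 tumours with MSC and 1 of 4 without. By coding length and by all exons the mean log2 differences of that pair were 0.64 and 0.69 (exact permutation, adjusted p = 0.0228 and 0.0164). Without tumour 10 the adjusted p of LOXL1 over LOX was 0.0273, and without tumour 12 that of BMP1 over PCOLCE was 0.0365 (exact permutation).

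**Figure D4:**
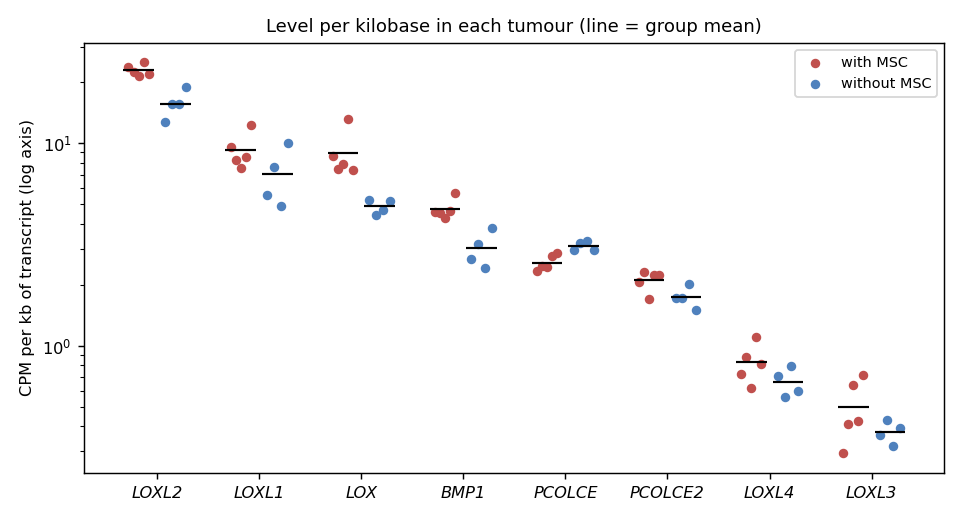
CPM per kilobase of transcript on a log axis for each gene in each tumour, in order of the mean log2 level over the 9 tumours, with MSC left of without MSC for each gene and a line at each group mean. On this scale LOXL2 is the highest gene in both groups and LOXL3 the lowest by group mean, and BMP1 and PCOLCE change places between the groups, which they do not by coding length or by all exons.

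Genes whose profile over the 9 tumours was most like that of the called genes were taken by the smallest root mean square difference in log2 CPM, each gene centred on its own mean, among 12613 genes. For LOX these were PLOD2, the lysyl hydroxylase that modifies collagen telopeptides (difference 0.132), the peptide hormone gene APLN (0.160) and the glucose transporter SLC2A1 (0.171); the median over all genes was 0.535. For LOXL2 they were the membrane enzyme MBOAT7 (0.0709), the GPI transamidase subunit PIGT (0.0794) and TM9SF4 (0.0812), and for BMP1 the phosphatase G6PC3 (0.0783), the endoplasmic reticulum chaperone HYOU1 (0.0797) and the calcium channel subunit CACNB1 (0.0989). Likeness over 9 tumours in 2 groups includes the difference between the groups and says nothing of shared control.

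The hypoxia genes are given beside LOX, and the fibroblast and MSC markers beside BMP1, without a test of whether they moved together. The 10 hypoxia genes, which include SLC2A1 and VEGFA, had a mean log2(CPM + 0.05) of 5.74, 5.59, 5.80, 6.35 and 5.42 in tumours 1, 6, 7, 10 and 15 with MSC and 5.34, 5.15, 4.77 and 5.10 in tumours 9, 11, 12 and 13 without. Tumour 10 was the highest both for this list and for LOX, and their part in the change of LOX was not tested. The fibroblast and MSC markers had a mean log2(CPM + 0.05) of 2.11 in tumour 15, which was also the highest for BMP1, LOXL1 and LOXL3, and of at most -0.19 in the other tumours with MSC and -0.78 without. The change of BMP1 without that tumour was 0.56, and the LOX level in it, 37.7 CPM, was the lowest of the 5 tumours with MSC. For the 6 smooth muscle and pericyte markers the summed CPM was 8.54 to 12.5 with MSC and 5.25 to 9.87 without, for the 6 endothelial markers 5.02 to 7.26 and 8.33 to 10.8, and for the 6 leukocyte markers 139.4 to 209.2 and 96.0 to 139.3. CD68 made up most of the leukocyte sum (mean 159.1 CPM with MSC, 110.7 without) and was called higher (log2 change 0.52, edgeR adjusted p = 0.0371). LYZ and CD14 had lower means with MSC but were not called (edgeR adjusted p = 0.209 and 0.726), and CSF1R was alike (4.48 and 4.42 CPM). PTPRC averaged 0.956 ± 1.48 CPM with MSC, up to 3.58 CPM in its highest tumour, and 0.0821 CPM without. ITGAM averaged 0.0333 and 0.0327 CPM. Neither PTPRC nor ITGAM passed the filter. PECAM1 made up most of the endothelial sum (4.43 and 8.50 CPM) and was called lower (log2 change -0.94, edgeR adjusted p = 0.00745). KDR had a lower mean with MSC but overlapped and was not called (log2 change -0.37, edgeR adjusted p = 0.588). CDH5, TEK, VWF and CLDN5 averaged at most 0.271 CPM and were not lower. The part of these lists in the results was not tested.

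**Figure D5:**
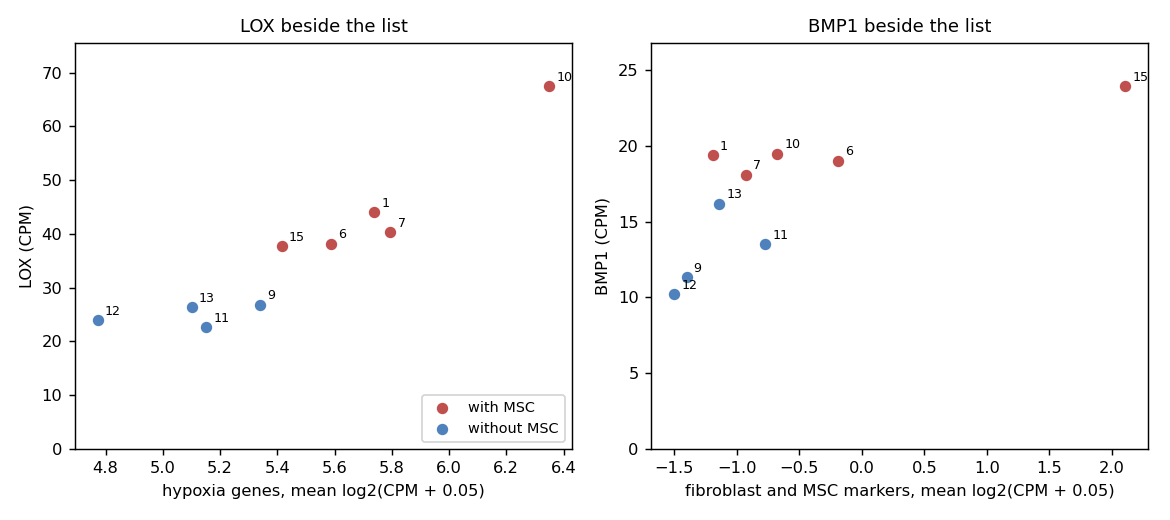
LOX in CPM against the mean log2(CPM + 0.05) of 10 hypoxia genes (left), and BMP1 in CPM against that of 12 fibroblast and MSC markers (right), 1 point per tumour with its number. Tumour 10 is at the upper right for LOX and tumour 15 for BMP1, where its marker mean is 2.11 against at most -0.19 in the others.

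The substrates and partners of these enzymes were read from the same fit, by lists chosen with earlier results known. Of the 11 fibrillar collagen chains, the substrates of BMP1 and LOX, 6 passed the filter; COL1A2 was called higher and none lower (log2 change 2.41 ± 0.51, 3.13 ± 3.03 CPM with MSC and 0.580 ± 0.0802 CPM without, edgeR adjusted p = 0.0104). Its level was 8.45 CPM in tumour 15 and at most 2.64 CPM in the others, and its change was 1.61 without tumour 15 (edgeR adjusted p = 0.0417). With limma-voom it was 1.75 and not called (adjusted p = 0.149). The median log2 change of the 6 chains was 1.30, and 0.88 without tumour 15. COL1A1 was 25.4 ± 17.7 CPM with MSC and 13.01 ± 3.09 CPM without (log2 change 0.97 ± 0.48, edgeR adjusted p = 0.259), with 55.4 CPM in tumour 15. Of the 16 elastic fibre genes, 12 were tested and EFEMP1, which codes for fibulin-3, was called higher (0.76 ± 0.17, edgeR adjusted p = 0.0158); elastin itself (ELN) averaged 0.121 CPM with MSC and 0.0245 CPM without and did not pass the filter. No elastic fibre gene was called without tumour 9 or tumour 12, and no fibrillar chain without tumour 12.

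Of 14 other substrates and partners of BMP1, 9 were tested and 4 were called higher. HSPG2, the basement membrane proteoglycan perlecan, was 3.35 ± 1.71 CPM with MSC and 0.937 ± 0.500 CPM without (log2 change 1.83 ± 0.41, edgeR adjusted p = 0.0128). TWSG1, which binds BMP ligands with chordin (0.51 ± 0.12, edgeR adjusted p = 0.0192), and fibronectin FN1 (0.67 ± 0.19, edgeR adjusted p = 0.0477) were also called. The call of FN1 was lost in 6 of 9 fits without 1 library (tumours 7, 9, 10, 11, 12 and 15, edgeR adjusted p up to 0.163) and in 5 of 10 other fits, DESeq2 among them (adjusted p = 0.0667). The change of HSPG2, which was 5.97 CPM in tumour 15 and at most 3.74 CPM in the others, was 1.52 without that tumour (edgeR adjusted p = 0.0427), and its call was lost without tumour 9 (edgeR adjusted p = 0.0563), with limma-voom (adjusted p = 0.0557) and without tumours 15 and 12 together (edgeR adjusted p = 0.0694). The median log2 change of the 9 was 0.53, and the count of calls was 2 without tumour 10, 1 without tumour 9 or tumour 12, and 0 without tumours 15 and 12 together. The related enzymes gave no call among 5 tested of 11 (FURIN, which activates BMP1 by cutting its propeptide, 0.36 ± 0.13, edgeR adjusted p = 0.0886). The list had 1 call without tumour 13, which was FURIN (edgeR adjusted p = 0.0467). It also had 1 call without tumour 11, where FURIN was not called (edgeR adjusted p = 0.105). TLL1 and TLL2, the other tolloid proteinases, averaged 0.0258 and 0.0369 CPM with MSC and 0 and 0.0746 CPM without, and did not pass the filter.

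Of 16 collagen modifying enzymes and chaperones, which act on procollagen inside the cell and were all tested, 9 were called higher and none lower, and the median log2 change was 0.64. PLOD2 was 112.0 ± 21.8 CPM with MSC and 60.8 ± 7.03 CPM without (log2 change 0.88 ± 0.13, edgeR adjusted p = 0.00117), P4HA2 and P4HA1, the catalytic subunits of prolyl hydroxylases, had changes of 0.96 ± 0.15 and 0.85 ± 0.19, and the prolyl isomerase PPIB 0.56 ± 0.13. The count was 4 without tumour 10, 3 without tumour 9 or tumour 12, and 4 without tumours 15 and 12 together. Of the 8 copper handling genes, which supply the cofactor of lysyl oxidases, none was called (median log2 change 0.02): COX17 had the smallest p (-0.34 ± 0.12, edgeR adjusted p = 0.0971), and ATP7A, the pump that loads copper onto secreted enzymes, was 3.13 ± 0.811 CPM with MSC and 2.08 ± 0.911 CPM without. Of the 10 hypoxia genes 3 were called higher, SLC2A1 (0.94 ± 0.15), ADM (1.23 ± 0.32) and VEGFA (0.68 ± 0.15), with a median log2 change of 0.66. The count was 5 without tumour 15 and 1 without tumour 12 or with the GC and length correction, and the call of ADM was lost in 6 of 9 fits without 1 library (tumours 1, 6, 9, 10, 11 and 12, edgeR adjusted p up to 0.113), with no filter (edgeR adjusted p = 0.105) and with the GC and length correction (edgeR adjusted p = 0.0588).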

How the data were processed

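The deposited files hold raw read counts per gene symbol from 9 libraries, 1 per tumour. Per the submitters' processing notes they were made with CASAVA 1.8.1, TopHat 1.4.0 and HTSeq on hg19; the gene annotation, the use of strand and any removal of mouse reads are not stated in the labels. The kit named there does not mark strand. Reads assigned to no gene (10.2 to 12.1% of a library) were left out. No 2 libraries agreed within sampling noise (chi-square per degree of freedom at least 24.0 within a group).

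Counts were fitted over all genes with edgeR 4.0.16 (filterByExpr, TMM, glmQLFit with robust=TRUE) in R 4.3.3, with Benjamini-Hochberg adjustment at 0.05. CPM used TMM-scaled library sizes. Lengths and positions came from GENCODE release 29 on GRCh38, not the authors' build: the transcript with the longest coding sequence gave CPM per kilobase. Neighbours in level were compared by exact sign-flip permutation. On simulated counts for this comparison (13236 genes) 38 of 83 genes with a 1.5-fold change were recovered, as were 45 of 53 with a 2-fold and 59 of 62 with a 4-fold change, and 6 of 13038 unchanged genes were called. The simulated counts were drawn for each gene on its own with the fitted dispersions. They hold no deviation of a tumour that many genes share, so these rates may not apply to the real tumours.

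The members and lists were chosen with earlier results of these data known. Named genes were the 8 members, up to 4 called genes of smallest p per list or else the 1 of smallest p, the 3 genes most like each called member, defining markers and overlapping genes; ELN, ATP7A, TLL1 and TLL2 were added after their values were seen. The values of 1 called gene are not reported here. Alternatives were other normalizations and filters, robust=FALSE, DESeq2 1.42.0, limma-voom with quality weights (limma 3.58.1), leaving out libraries and other lengths. A GC and length correction (splines with 4 degrees of freedom) and all exons as length were chosen after seeing the data.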

Additional observations from a re-analysis of the deposited data

Results flagged for a closer look

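LOX in tumour 10, at 67.5 CPM, lay apart from the other tumours with MSC, and the ratio of LOXL2 to LOX was lowest there, at 1.90 against 2.73 to 3.01 in the other tumours with MSC. BMP1 in tumour 15, at 23.96 CPM, lay apart above the other tumours with MSC. Each was marked because its gap to the nearest tumour of its group was a large share of the group's range (0.789, 0.747 and 0.761, over 0.71). The 3 marked values came from 34 sets of values examined, and chance marks about 5% of such sets.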

How the results depend on the processing

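No paired analysis was possible because the groups share no replicate numbers. Over all genes, 563 were higher and 484 lower with MSC. DESeq2 gave 859 and 778, limma-voom with quality weights 403 and 289, and leaving out tumours 15 and 12 together 201 and 101; leaving out 1 library gave 151 to 985 higher and 94 to 863 lower, the fewest without tumour 12 and the most without tumour 13; without tumours 1, 9 or 10 both counts also fell over 1.5-fold, and without tumour 6, 350 were higher, without tumour 11, 299 were lower and without tumour 15, 301 were lower. The count of the 8 genes called higher was 2 to 4, and none was called lower in any fit. Their changes kept their sign in every fit that tested them; LOXL3, LOXL4 and PCOLCE2 were not tested under 5 CPM in at least 4 libraries. LOX has a GC content of 39.6% and the other 7 genes 49.6 to 67.6%. With the GC and length correction LOX was 0.96, LOXL2 0.43, BMP1 0.44 (edgeR adjusted p = 0.0356), LOXL1 0.16 and PCOLCE -0.40 (log2). By coding length and by all exons, LOXL1 over LOX was -1.33 and -0.26, BMP1 over PCOLCE 0.64 and 0.69 (log2; exact permutation, adjusted p = 0.0228 and 0.0164), and by coding length PCOLCE over PCOLCE2 was 0.18 (exact permutation, adjusted p = 0.148). By the same 2 lengths the shares with MSC were 41.7 and 27.3% for LOX, 41.1 and 48.3% for LOXL2 and 1.53 and 2.76% for LOXL4, and 14.8% for LOXL1 by coding length. Without MSC they were 36.5 and 23.1% for LOX, 43.4 and 49.4% for LOXL2 and 1.06 and 1.54% for LOXL3, 17.1% for LOXL1 by coding length and 3.44% for LOXL4 by all exons. Leaving out 1 library, LOXL1 over LOX was 0.16 to 0.35 and BMP1 over PCOLCE 0.40 to 0.58. The differences between lengths, in levels and shares, follow from the lengths used. The cause of the differences on leaving out libraries, and of those in the counts, was not tested. Depth limits LOXL3 most, with 27 counts in the smallest library.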
